A study of Mus musculus with 28 samples.

Results

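The 9 Müller glial cells (MGCs) described here were picked as single cells from the retinas of mice at a late stage of photoreceptor loss, 5 from rhodopsin knockout (Rhod-ko) mice and 4 from rd1 mice. They were chosen from the sample labels alone, not from any measured value, and make up 9 of the 27 cells of the series, or 10 of its 28 arrays. The Rhod-ko cells came from 25-week-old mice of the C57/BL6 strain that lack rhodopsin, the light-sensing protein of rods. The rd1 cells came from 5-week-old mice of the FVB strain, which carry the RD1 mutation in the gene for the beta subunit of the rod phosphodiesterase. In both models the rods carry the defect and the glia are studied as their neighbors. Cells are named by their array labels, A1 to A5 for Rhod-ko and A1, A5/A6, B1 and A8 for rd1. The rd1 arrays A5 and A6 were nearly identical, with 98.9% of 5554 bright probe sets within 2-fold and a Pearson r of 0.985, so their mean was used as 1 cell. Of the other 18 cells, those of the C57/BL6 strain came from adult wild-type (WT) mice, labeled as over 25 weeks, and 8-week-old Rhod-ko mice. Those of the FVB strain came from rd1 mice and from wild-type mice, called congenic here, at postnatal day 13 (P13). Of these 18, 5 of the 8 FVB cells went against their MGC label and are called vascular-rich here, namely all 3 congenic cells and rd1 cells A1 and B1 of P13. They had 9 to 10 of 14 vascular markers and 5 to 10 of 23 MGC markers on, with summed signals of 104827 to 149998 and 88317 to 143137, where the other 3 FVB cells had 0 to 2 and 18 to 20 on. Results that rest on P13 cells are therefore given with and without these 5, a choice made after seeing the data.

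MGCs are the radial glia of the retina and span its whole thickness. They take up glutamate and gamma-aminobutyric acid (GABA), turn glutamate into glutamine, buffer potassium and water, and recycle retinoids for the photoreceptors. After injury they undergo gliosis, in which the intermediate filament protein glial fibrillary acidic protein (Gfap) is classically induced. Rods die first in both models because they alone use the mutated gene product, and cones are lost afterward.

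The comparison asked which transcripts the late MGCs of both models shared and which set them apart. Values are microarray signals, with each gene given its brightest single-symbol probe set in each cell. Signals over 2000 count as on and those under 1000 as off, and medians over cells were taken after raising lower signals to a floor of 1000. No label says which animal a cell was taken from. Each model therefore counts as 1 sample, no test between the models could be made, and a 2-fold difference between medians is a rule of size only. Differences are given on the log2 scale as Rhod-ko minus rd1, so negative values are higher in rd1. Mutation, strain and age change together between both groups and cannot be told apart. A fold against a median under the floor is a lower bound, written as "at least".

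The cells carried the transcripts of MGCs. Of 23 measured MGC markers, 19 to 21 were on in each Rhod-ko cell and 20 to 21 in each rd1 cell. Microglial markers were nearly absent, with 0 to 1 of 16 on per cell, and vascular markers numbered 0 to 2 of 14. The rod phosphodiesterase gene Pde6b was under 500 in all 9 cells, which does not check the genotype because glia do not use it. Neuronal transcripts were most numerous in rd1 A1, which had 6 of 10 cone markers, 7 of 11 bipolar markers and 6 of 11 ganglion cell markers on, where the highest Rhod-ko counts were 3, 4 and 4. The summed signal of the 11 bipolar markers was 74470.3 in rd1 A1, 7258 to 28425 in the other rd1 cells and 13722 to 45881 in the Rhod-ko cells. That of the 10 cone markers was 37032 in rd1 A1 and reached 61158 in rd1 A8, where it lay above all Rhod-ko cells, which ran from 2894 to 16996. The part of these transcripts in the differences below was not tested.

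The arrays of both groups also differed in how their signal was spread over genes. The 5 Rhod-ko cells had 2670.0 to 3123 genes on, and their brightest gene read 46944 to 55308. The rd1 cells had 3208 genes on in A1 but only 1858 to 2485 in the other 3, whose brightest gene read 100598 to 212112. The 100 brightest genes held 11.9% to 13.2% of the signal in the Rhod-ko cells, 9.35% in rd1 A1 and 15.8% to 21.6% in the other rd1 cells. The median signal of the 318 genes on in all 9 cells was 13008 to 15363 in the Rhod-ko cells, 10259 in rd1 A1 and 18471 to 28808 in the other rd1 cells. The part of this spread in the values of highly expressed genes was not tested beyond the other scalings given beside them.

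Both models shared a core of 318 genes that were on in all 9 cells, 1.75% of the 18194 genes measured. The 10 brightest of these, by the lower of their medians, were Clu, Dbi, Rlbp1, Rtn4, Cryab, Dkk3, Gapdh, Pfn2, Vim and Fth1. They include the retinoid carrier of MGCs (Rlbp1), the chaperones clusterin (Clu) and alpha B-crystallin (Cryab), the intermediate filament vimentin (Vim) and ferritin heavy chain (Fth1). Clu read 52398, 50346, 43062, 55308 and 50889.8 in the Rhod-ko cells and 32359, 100598, 212112 and 165200.0 in the rd1 cells. Rlbp1 read 47039, 40866, 38972, 53099 and 43791 against 27908, 76514, 137346 and 84464. For both genes rd1 A1 was the lowest of the 9 cells and the other 3 rd1 cells were above every Rhod-ko cell, so the groups overlapped. The difference was -1.34 for Clu and -0.88 for Rlbp1, which moved with the scaling to 0.17 and -0.02 when the arrays were quantile normalized and to -2.49 and -1.96 when they were scaled to the same 90th percentile. Cryab differed by 0.30 in its medians but ranged from 6716 to 129561 among the rd1 cells against 29369 to 43653 among the Rhod-ko cells. Of the 318 shared genes, 15 were at least 2-fold higher in Rhod-ko and 51 in rd1.

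**Figure D1:**
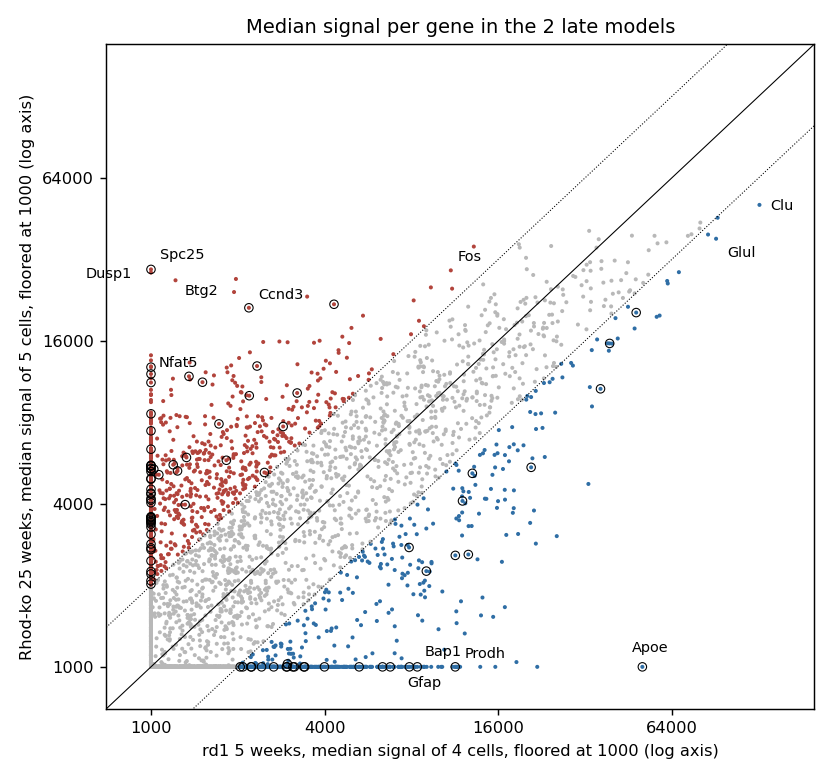
Each point is 1 gene, with its median signal in the 4 rd1 cells on the horizontal axis and in the 5 Rhod-ko cells on the vertical axis, both log axes in signal units floored at 1000. Red and blue mark genes at least 2-fold higher in Rhod-ko or in rd1, dotted lines mark 2-fold, and circles mark the 56 and 31 of these genes with no overlap between cells; many called genes lie on the floor of the other model.

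Over all 18194 genes, 1053 (5.79%) were at least 2-fold higher in Rhod-ko and 705 (3.87%) in rd1. Among the 4514 genes with a median over 1000 in either group, these were 23.3% and 15.6%. Rhod-ko thus held 59.9% of the called genes, but this split depended on the scaling, with 51.3% after quantile normalization and 34.4% when arrays were scaled to the same 90th percentile. For 559 of the 1053 and 440 of the 705, the median of the other model lay under the floor. Cells of 1 model were not much more alike than cells of different models. Pearson r over genes was 0.515 to 0.581 between Rhod-ko cells, 0.454 to 0.530 between rd1 cells and 0.457 to 0.612 across the models.

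Few genes separated the models in every cell. Only 4 genes (0.022%) were on in all 5 Rhod-ko cells and off in all 4 rd1 cells, namely Spc25, Nfat5, Rnf7 and S100a10, and 2 genes (0.011%) were on in all rd1 cells and off in all Rhod-ko cells, Bap1 and Mrpl32. Leaving out rd1 A1 raised the first count to 21, and leaving out rd1 B1 raised the second to 10. Spc25, which encodes a component of the Ndc80 complex at the kinetochore, read 35368, 36716, 20942, 26198 and 29396 in the Rhod-ko cells and 191, 87.1, 332 and 108 in the rd1 cells, at least 29.4-fold lower. This was not a difference of the late stage alone. Spc25 was also on in 4 of 5 WT cells and 5 of 5 Rhod-ko cells at 8 weeks, and in 0 of the 8 P13 cells of the FVB strain (0 of 3 without the vascular-rich cells), so that it followed the strain in 26 of the 27 cells. One of its probe sets carried the whole signal, while its other probe set stayed under 500 in all 9 cells.

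Nfat5, a transcription factor of the response to osmotic stress, read 12077, 3437, 13515, 12927 and 5246 in Rhod-ko and 596, 116, 145 and 693 in rd1, a difference of at least 12.1-fold. Rnf7, a RING subunit of cullin ubiquitin ligases, read 9704, 3589, 2991, 8156 and 7448 against 921, 207, 306 and 412. S100a10, the partner of annexin A2, read 3571, 3123, 6908, 19548 and 5521 against 232, 70.9, 57.3 and 116. Unlike Spc25, these 3 genes were on in FVB cells at P13, Nfat5 in 4, Rnf7 in 7 and S100a10 in 6 of 8. Without the 5 vascular-rich cells these were 0, 3 and 1 of 3, and S100a10 read 44.4 and 135 in 2 of those 3. In the other direction Bap1, a nuclear deubiquitinase, read 3, 90.1, 555, 278 and 18.3 in the Rhod-ko cells and 5593, 8463, 10324 and 8315 in the rd1 cells, at least 8.39-fold higher. Mrpl32, a protein of the mitochondrial ribosome, read 739.7, 3, 1.9, 9.9 and 84.8 against 3406, 7361, 18944 and 5484. It was on in 4 of 5 rd1 cells at P13 (2 of the 3 not rich in vascular markers) and in 1 of the 10 other C57/BL6 cells.

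**Figure D2:**
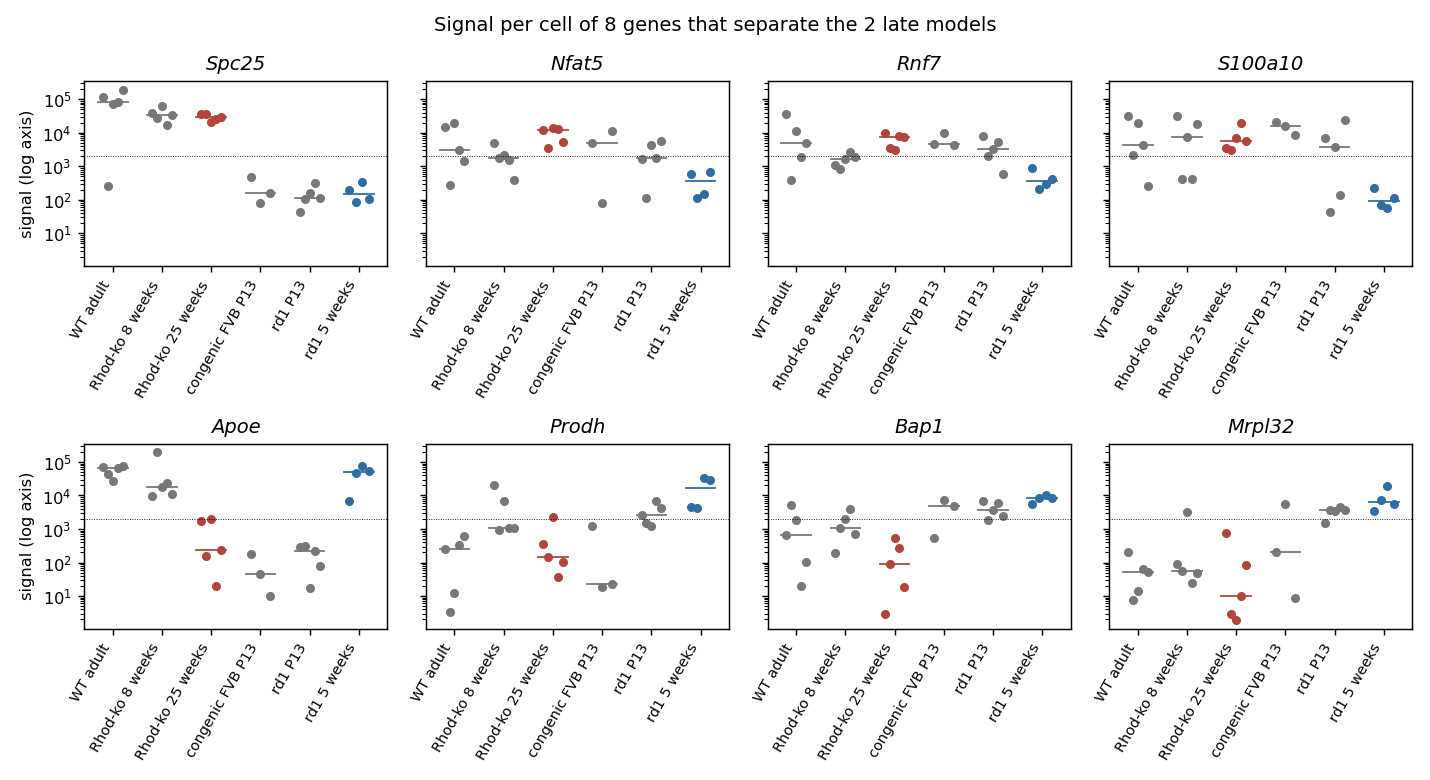
Each panel shows 1 gene, with the signal of every cell on a log axis in 6 groups; horizontal bars are group medians and the dotted line is the threshold of 2000 for a gene that is on. Spc25 is high in both Rhod-ko groups and in 4 of 5 WT cells, Apoe is low in the late Rhod-ko and both P13 groups, and all late rd1 cells lie above all late Rhod-ko cells for Apoe, Prodh, Bap1 and Mrpl32.

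A looser rule, at least 2-fold with no overlap between the 5 and the 4 cells, held 56 genes (0.308%) higher in Rhod-ko and 31 (0.17%) higher in rd1. The widest gap of all was that of Apoe, the lipid carrier that MGCs normally make in quantity, which read 1702, 159, 2033, 20.1 and 236 in Rhod-ko and 6859, 47707, 73372 and 53676 in rd1. Its medians differed at least 50.6-fold. Apoe was on in 5 of 5 WT cells, at 27794 to 78342, and in all 5 of the 8-week Rhod-ko group, at 9543 to 196691, but in 0 of 8 P13 cells of the FVB strain, which read 10.2 to 318. It is itself an MGC marker, and it was also off in the 3 of these cells that had MGC markers, at 227 to 318. The late Rhod-ko cells were thus low against the other cells of their own strain, and the late rd1 cells high against those of theirs. Apoe also went in part with the spread of signal over genes. The 100 brightest genes held 15.5% to 21.5% of the signal in WT cells and 25.8% to 35.1% in 8-week Rhod-ko cells. In P13 cells they held 11.6% to 12.7%, close to the late Rhod-ko cells. Among the late rd1 cells, A1 had the lowest such share and the lowest Apoe signal. Yet its share, 9.35%, was under those of all late Rhod-ko and P13 cells, while its Apoe signal, 6859, was above all of theirs. Only 1 probe set reads Apoe, and the part of this spread in its values was not tested. Prodh, the mitochondrial enzyme that begins proline breakdown, read 359, 142, 2304, 37.9 and 104 in Rhod-ko and 4431, 4241, 33059 and 29107 in rd1. The GABA transporter gene Slc6a11 read 2258, 1339, 2755, 4698 and 1804 against 8343, 7711, 19024 and 9744, a 3.99-fold difference of medians.

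Genes specific to a model are left aside here. The 8 widest gaps toward rd1 included Apoe (-5.66), Prodh (-3.51) and the unnamed gene 1500011B03Rik (-2.98). The others were Tm2d3, Cnot2, a subunit of the CCR4-NOT deadenylase, Prpf19, a splicing factor, Atp5k, a subunit of the ATP synthase, and Abhd1. The 8 widest gaps toward Rhod-ko were those of Wsb1, Sdc4, Ccnd3, Rida, Urod, Cers6, Nin and Nadk. Ccnd3, a D-type cyclin, read 21207, 10648, 14521, 21968 and 23377 in Rhod-ko and 5917, 97.3, 173 and 4777 in rd1. Sdc4, a heparan sulfate proteoglycan of the cell surface, read 12938, 3558, 11228, 13418 and 5631 against 2437, 909, 69.3 and 479. Cers6, a ceramide synthase, read 4919, 7493, 13669.9, 11261 and 22531 against 2276, 3177, 54.2 and 146. The lowest Rhod-ko cell was above the highest rd1 cell in each of these, though by a small margin for Sdc4 and Cers6. Urod, an enzyme of heme synthesis, and Nadk, which phosphorylates NAD, were off in all 4 rd1 cells and on in 4 of 5 Rhod-ko cells, with differences of 3.11 and 2.47.

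Strain was compared in the 18 cells outside the late groups. Between the 10 other C57/BL6 cells and the 8 other FVB cells, 434 of all genes (2.39%) were at least 2-fold higher in C57/BL6 and 1399 (7.69%) in FVB. Of the 56 genes higher in late Rhod-ko, 5 (8.93%) were also higher in the other C57/BL6 cells, namely Spc25, Fam169a, Sf3b2, Spr and Trim28, and 12 (21.4%) were higher in the other FVB cells. Of the 31 genes higher in late rd1, 5 (16.1%) were also higher in the other FVB cells, namely Bap1, Mrpl32, Cnot2, Trappc3 and 1500011B03Rik, and 3 (9.68%) ran the other way. The other FVB cells were all from P13 and the other C57/BL6 cells from adults, so age moves with strain there too, and so do the vascular markers of 5 FVB cells. Rod transcripts differed as well. Of 19 rod markers, 7 to 16 were on in congenic and 8 to 15 in rd1 P13 cells, against 1 to 4 in WT and 2 to 11 in 8-week Rhod-ko cells. The 3 FVB cells not rich in vascular markers had 10, 15 and 11 rod markers on, so leaving out the 5 vascular-rich cells does not remove this difference. Without those 5, the counts over all genes were 319 and 1638. Of the 56 genes, 5 were then higher in C57/BL6, with S100a10 in place of Fam169a, and 18 (32.1%) in FVB. Of the 31 genes, 8 (25.8%) were higher in FVB, among them again Bap1, Mrpl32, Cnot2 and 1500011B03Rik, and 1, Apoe, was higher in C57/BL6. Only 3 FVB cells stand behind these counts.

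Among the MGC markers, none of 23 was at least 2-fold higher in Rhod-ko and 6 were higher in rd1, namely Apoe, Clu, Glul, Abca8a, Kcnj10 and Dbi. Over the 23 markers, differences had a median of -0.51. Over all genes it was 0, since most lay at the floor in both models, and 0.02 over the rest. Of the markers, 22 had a median over the floor and 17 were on in all 9 cells. Beside the 26.1% of markers higher in rd1 stood 15.6% of genes over the floor. Of the 318 genes on in all 9 cells, 51 were higher in rd1 and 15 in Rhod-ko. Whether the markers leaned further than equally bright genes was not tested. Glul, glutamine synthetase, read 36819, 38159, 33639, 42077 and 38549 in Rhod-ko and 21860.3, 69373, 124822 and 119808 in rd1. As with Clu, rd1 A1 was the lowest cell and the other 3 rd1 cells were the highest. The list counts moved with the scaling, to 2 higher in Rhod-ko and 2 in rd1 after quantile normalization, and to 0 and 18 after scaling to the 90th percentile. Apoe was at least 2-fold higher in rd1 under both scalings. The counts also rested on single cells, with 3 higher in rd1 without rd1 B1 or without rd1 A8, 2 higher in Rhod-ko without rd1 A5/A6, and 1 without Rhod-ko A2, A3 or A5 or rd1 B1 or A8. Carbonic anhydrase II (Car2) was nearly level, reading 16883, 14186, 15851, 18208 and 13878 against 5902, 16898, 16128 and 16794.

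Gliosis genes did not move as 1 group. Of 34 measured, 6 were higher in Rhod-ko (Lgals1, Socs3, S100a10, Lgals3, Serpina3n and Cebpd) and 2 in rd1 (Gfap and Cd44), against 4 and 9 under 90th-percentile scaling. Without rd1 A1 or without rd1 A8, 5 were higher in rd1. Gfap read 78.4, 41.8, 29918, 29.7 and 1803 in the Rhod-ko cells and 4301, 12136, 21806 and 3004 in the rd1 cells. It was on in 1 of 5 Rhod-ko cells (20%, exact 95% interval 0.505% to 71.6%) and in 4 of 4 rd1 cells (100%, interval 39.8% to 100%), intervals that overlap and cover counting error only. Rhod-ko A3 was the brightest of all 9 cells for Gfap, while 3 other Rhod-ko cells were under 100. The probe sets of Gfap did not agree on the rd1 cells. One was over 2000 in all 4, whereas another was over 2000 in rd1 A1 and B1 only, at 4301 and 13836, and read 11.1 in A5/A6 and 211 in A8. In the 8-week Rhod-ko and P13 rd1 groups Gfap was on in 4 of 5 cells each, including all 3 rd1 cells not rich in vascular markers, and in WT in 1 of 5.

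Cd44, the hyaluronan receptor, read 6309, 3118, 6557, 2646 and 14028 in Rhod-ko and 3809.6, 16333, 50388 and 21423 in rd1. Lgals1, a galactose-binding lectin, read 4171, 4993, 14455, 10550.2 and 18252 against 222, 105, 8190.1 and 526. Both genes overlapped between the groups through a single rd1 cell, A1 for Cd44 and B1 for Lgals1. Lgals3, a related lectin, was on in 3 of 5 Rhod-ko cells and 0 of 4 rd1 cells, reading 11300.0, 5506, 10.7, 4276 and 30 against 1426, 65.1, 249 and 153. Serpina3n and Cebpd were called by narrow margins, at 1.09 and 1.05, and their cells overlapped widely. Stat3, the transcription factor of cytokine signaling, was on in 4 of 5 and 3 of 4 cells. Its difference of -0.34 depended on the choice of probe set and scaling, with 1.75 for a single fixed probe set and -1.98 under 90th-percentile scaling.

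**Figure D3:**
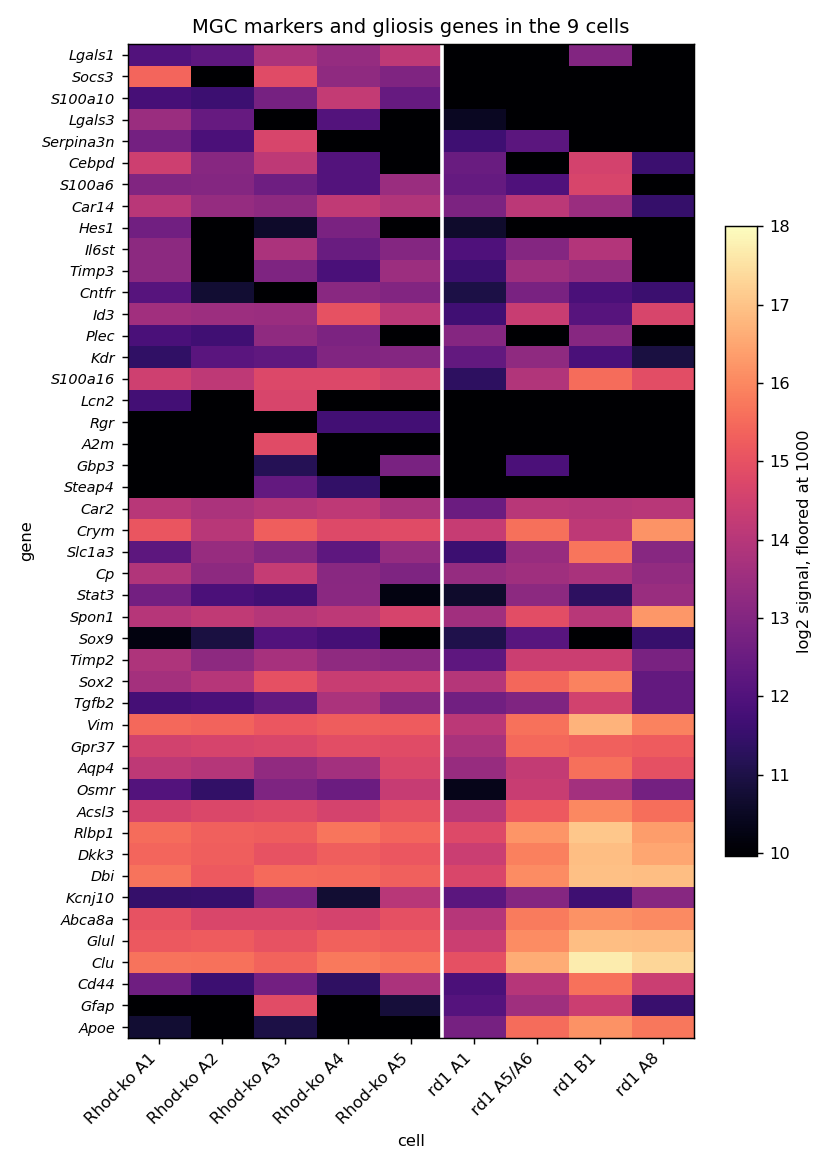
The heat map gives the log2 signal, floored at 1000, of MGC marker and gliosis genes that were on in any cell shown. The 5 Rhod-ko cells are left of the white line and the 4 rd1 cells right, with genes sorted by the difference of medians. Clu, Glul, Rlbp1 and Dbi are palest in rd1 A5/A6, B1 and A8 and darker in rd1 A1 than in any Rhod-ko cell. Apoe is brighter in every rd1 cell than in any Rhod-ko cell, and Gfap is bright in 1 Rhod-ko cell and in all rd1 cells.

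Genes of potassium, water and glutamate handling were split, with 3 of 26 higher in Rhod-ko and 5 in rd1 (3 without Rhod-ko A1, 2 without rd1 A8). Kcnj10, the main potassium channel of MGCs, read 2857, 2964, 6939.8, 1706 and 16548 in Rhod-ko and 4745, 8562, 3174 and 8640.5 in rd1, with the brightest and the dimmest cell both in Rhod-ko. Its membrane anchors dystroglycan (Dag1) and dystrophin (Dmd) leaned the other way, at 2.11 and 1.07. Dag1 read 7908, 3154, 10658, 6638 and 5234 against 981, 598, 18649 and 2358, so that rd1 B1 was above every Rhod-ko cell. The water channel Aqp4 was on in all 9 cells and differed by -0.63. Slc1a2, a glutamate transporter, read 4917, 1754, 8309.9, 6299 and 5872 against 3461, 3739, 190.2 and 519.5.

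Immediate early genes, which are transcribed within minutes of a stimulus and encode mostly transcription factors and brakes on signaling, were called in a single direction. This list, like the others, was chosen with earlier results of these data known, so its contrast with the background is not an independent check. Of 36 measured, 13 were at least 2-fold higher in Rhod-ko and 0 in rd1, where the background was 5.79% and 3.87%. Over all other settings tried the first count ran from 9 to 17 and the second stayed at 0. They divide into factors of the AP-1 family (Jun, Junb, Fos, Fosb), the zinc finger factor Egr1, the phosphatase Dusp1, the anti-proliferative factor Btg2, the stress protein Gadd45g, the mRNA decay factors Zfp36 and Zfp36l1, the cytokine signaling inhibitor Socs3, and Ier2 and Ier5. Many such genes are driven through a cAMP response element (CRE) or through the CArG box bound by serum response factor. The 250 bases before the start of 4 members that hold such letters are printed from RefSeq (GRCm38.p6), to show the elements in the genes the result turns on. The match is in capitals, the full CRE TGACGTCA in Dusp1 and Btg2, its first 5 letters TGACG in Fos, and a CArG box in Zfp36.
Dusp1: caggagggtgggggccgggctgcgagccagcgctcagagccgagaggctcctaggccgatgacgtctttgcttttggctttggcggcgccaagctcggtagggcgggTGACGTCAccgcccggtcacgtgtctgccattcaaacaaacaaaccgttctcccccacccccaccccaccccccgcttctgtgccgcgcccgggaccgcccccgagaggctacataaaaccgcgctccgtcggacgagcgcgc
Btg2: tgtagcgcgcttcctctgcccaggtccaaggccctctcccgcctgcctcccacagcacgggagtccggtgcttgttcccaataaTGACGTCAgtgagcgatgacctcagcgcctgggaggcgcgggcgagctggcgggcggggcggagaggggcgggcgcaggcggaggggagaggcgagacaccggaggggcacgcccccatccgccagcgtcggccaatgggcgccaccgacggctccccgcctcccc
Fos: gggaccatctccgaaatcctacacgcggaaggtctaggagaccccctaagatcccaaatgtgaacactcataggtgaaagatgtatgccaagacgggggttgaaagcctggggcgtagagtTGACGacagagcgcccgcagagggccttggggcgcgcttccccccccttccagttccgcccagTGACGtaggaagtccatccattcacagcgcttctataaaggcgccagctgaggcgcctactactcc
Zfp36: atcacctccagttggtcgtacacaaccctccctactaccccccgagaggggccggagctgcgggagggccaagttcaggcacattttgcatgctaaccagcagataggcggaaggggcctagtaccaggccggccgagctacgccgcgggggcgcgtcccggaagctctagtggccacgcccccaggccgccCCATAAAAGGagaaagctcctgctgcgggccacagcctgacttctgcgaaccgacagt
They lie at chr17:26508473-26508722 (minus strand), chr1:134079156-134079405 (minus), chr12:85473640-85473889 (plus) and chr7:28379229-28379478 (minus). Of the 13 genes, 11 had a window in the table. On either strand, TGACGTCA was in 2 of these 11 and in 508 of all 32851 windows of the same length (1.55%). TGACG, which lies within it, was in 5 of 11 and in 17.8% of all windows, the AP-1 motif TGANTCA in 1 of 11 (Zfp36l1) and 6.75%, and the CArG box in 1 of 11 and 1.47%. Over the whole list of immediate early genes, 27 had a window, with TGACGTCA in 3, TGACG in 15, TGANTCA in 1 and the CArG box in 2. TGACG was thus not particular to the called members. These matches describe the sequence only.

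The immediate early genes were uneven among the Rhod-ko cells. The number on was 23 in A1, 8 in A2, 19 in A3, 17 in A4 and 7 in A5, and in the rd1 cells it was 6, 3, 7 and 5. Rhod-ko A1, A3 and A4 were thus far above all rd1 cells, while A2 was just above them and A5 was level with the highest, B1. As a share of the list this was 63.9%, 52.8% and 47.2% in A1, A3 and A4, where all genes were on at 14.7% to 17.2% in the Rhod-ko cells. Among the other groups the number on was 4 to 9 in WT, 2 to 6 in Rhod-ko at 8 weeks, 10 to 11 in the congenic P13 cells and 7 to 16 in rd1 at P13. The 5 vascular-rich P13 cells had 10 to 12 on and the other 3 had 7 to 16.

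Dusp1 read 30476, 117, 28604, 29635 and 7736 in the Rhod-ko cells and 3352, 30.8, 109 and 164 in the rd1 cells, a median at least 28.6-fold higher. Btg2 read 32137, 75.7, 26796, 31681 and 5524 against 1479.6, 59.2, 226 and 3932. Egr1 read 32109, 2303, 32419.5, 27097 and 14356 against 1888, 2057, 5732 and 225. In all 3 genes Rhod-ko A2 was the low cell of its group and overlapped the rd1 cells. Gadd45g read 14159, 2518, 32464, 26689.7 and 63.8 against 19.6, 135, 62.1 and 61.6, and Socs3 read 43245, 95.4, 29297, 9678 and 7777 against 62.1, 165, 24.1 and 100.1. Both were off in all 4 rd1 cells. Jun read 11373, 2860.0, 14184, 8111 and 1190.5 against 811, 1269.9, 287 and 45.8. Fos was the exception in that all 9 cells had it on, reading 35461, 3587, 31480.2, 29154 and 22083 against 2670.5, 21868, 6839 and 17570.5. Its difference of 1.41 turned to -0.20 under 90th-percentile scaling. Atf3 was on only in Rhod-ko A1 and A3 of the 9 cells, at 24229.7 and 16856, and both medians were under the floor.

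**Figure D4:**
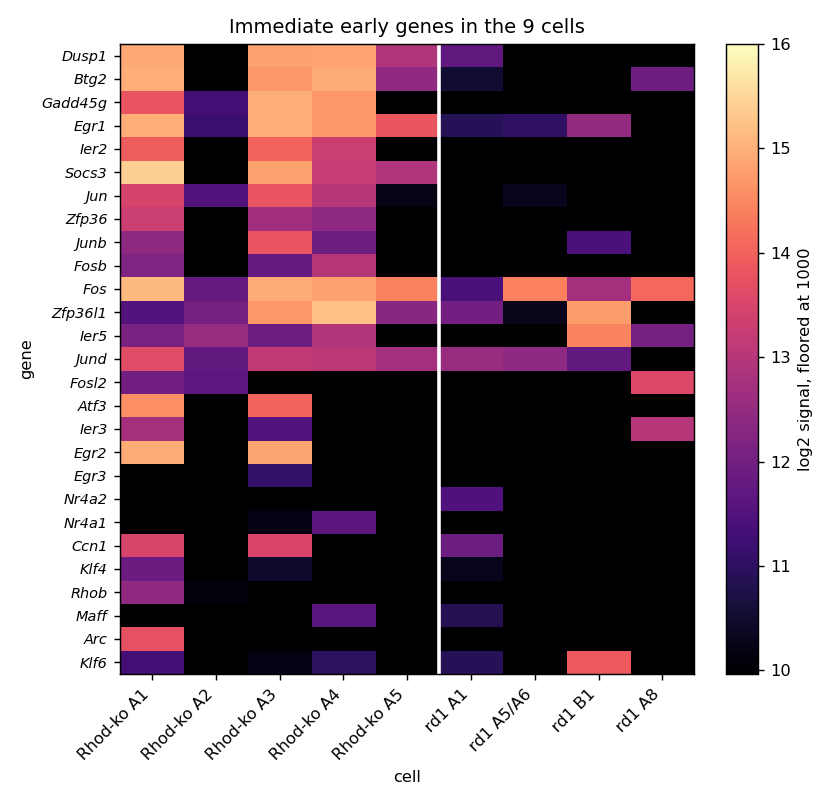
The heat map gives the log2 signal, floored at 1000, of the immediate early genes on in any of the 9 cells, Rhod-ko left and rd1 right of the white line. Rhod-ko A1, A3 and A4 are bright for most of the 13 called genes at the top, A2 and A5 for fewer, and the rd1 cells are mostly at the floor except for Fos.

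Antioxidant and metal-handling genes leaned the same way, with 11 of 39 higher in Rhod-ko and 0 in rd1. This depended on the scaling, with 11 and 1 after quantile normalization but 5 and 8 under 90th-percentile scaling. It also depended on single cells, with 7 higher in Rhod-ko without Rhod-ko A1 and 4 higher in rd1 without Rhod-ko A3 and 1 to 2 without any other cell but rd1 B1. Gstm5, a glutathione S-transferase, read 25627, 17467, 26159.8, 16375 and 24247 in Rhod-ko and 2112, 25040.3, 1784 and 1309.5 in rd1, where A5/A6 alone was within the Rhod-ko range. Sod2, the superoxide dismutase of mitochondria, read 7002, 7567, 6172, 5007 and 5177 against 6626, 2340.3, 21.3 and 104. Nnt, which supplies NADPH in mitochondria, was on in all 5 Rhod-ko cells and in 1 of 4 rd1 cells, at 2922 to 11635 against 45.9 to 11121. Prdx4, a peroxiredoxin, differed by 2.05 (0.25 with means in place of medians) but read 48282 in rd1 B1, above every other cell. The cytosolic dismutase Sod1 and the metallothioneins Mt1 and Mt2 were not called, at 0.55, -0.77 and -0.50. The other members called were Txnrd1, Gstm1, Gstk1, Gsta4, Txn2, Txn1 and Gpx1, from 2.01 (Txnrd1) down to 1.04 (Gpx1).

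The ubiquitin and proteasome list had 14 of 35 members higher in Rhod-ko and 5 in rd1, with a median of 0.95, and all 35 were over the floor in at least 1 model. Under 90th-percentile scaling this was 8 and 7, and without rd1 A5/A6 only 3 were higher in rd1. Proteasome subunits were on both sides. Psma3 read 4372, 2876, 4092, 4181 and 9376 in Rhod-ko and 1066, 322, 24.2 and 92.9 in rd1, and Psmd8 read 3284, 1446, 2927, 5178 and 3919.8 against 1335, 349.8, 165 and 56.7. Neither gene overlapped between the groups. Psma2 and Psmb2 had wider gaps between medians, 3.35 and 3.34, but each was off in 1 Rhod-ko cell, at 12.2 (A2) and 686 (A5). Psmb3 and Psmd14 were higher in rd1, at -2.77 and -2.34, as was Psmd12, which read 283, 1025, 1797, 52.1 and 1362 against 2471, 5713, 3019 and 2927 without overlap. Since subunits of 1 complex lay on opposite sides, the count describes transcripts and not the complex.

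Mitochondrial genes were called in both directions almost equally, 15 of 88 in Rhod-ko and 14 in rd1 (9 and 36 under 90th-percentile scaling, and 17 and 24 without rd1 A1). Ndufs3 of complex I read 12728, 5928, 14022, 6374 and 11523 in Rhod-ko and 1868, 6126, 524 and 97.6 in rd1. Ndufb2, also of complex I, read 7264, 1591, 1246, 8132 and 3097 against 8566, 1576, 70342 and 41092. Uqcr10 of complex III read 7774, 5459, 5695, 43.6 and 46 against 11972, 18978, 22835 and 26956, and all rd1 cells were above all Rhod-ko cells. The cytosolic ribosomal protein list was among those called in 1 direction only, with 0 of 44 higher in Rhod-ko and 9 in rd1. After quantile normalization this was 4 and 7, and under 90th-percentile scaling 0 and 30. Without rd1 B1, 2 were higher in Rhod-ko. The 9 were 20.5% of the list, beside 15.6% of all genes over the floor. Of the 44, 33 were among the 318 genes on in all 9 cells. Of those 318, 51 were higher in rd1 and 15 in Rhod-ko. Whether this list leaned further than equally bright genes was not tested. Rps29 read 15152, 8977, 17277, 10191 and 10645 against 19101, 35091, 99064 and 37399, and Rps20 read 22982, 14828, 13445, 20359.9 and 21058 against 23715, 43953, 92369 and 52787. For both genes the lowest rd1 cell was A1, just above the highest Rhod-ko cell. Of glycolytic and glycogen genes, 5 of 35 were higher in Rhod-ko (Pfkm, Hk1, Hkdc1, Pgm1 and Gbe1) and 3 in rd1 (Tpi1, Gapdh and Slc16a1), the latter being 1 without Rhod-ko A3 and 5 without rd1 A1.

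Cell cycle genes were called in 6 of 46 cases in Rhod-ko and 2 in rd1, the latter 4 without Rhod-ko A3 or rd1 A8. Beside Spc25, Ccnd3 and Btg2, the first were Ccnd1, Cdk4 and Pcna. Ccnd1, a second D-type cyclin, read 6177, 4683, 7672, 71.9 and 1576 in Rhod-ko and 1868, 126, 199.5 and 19.5 in rd1, and its difference of 2.23 fell under 2-fold, to 0.66, with a single fixed probe set. Pcna, the clamp of DNA replication, differed by only 1.04 (0.57 after quantile normalization and 0.55 under 90th-percentile scaling), and 1 rd1 cell (A8, 4019) lay above 4 Rhod-ko cells. The 2 genes higher in rd1, the kinase inhibitor Cdkn1b at -1.43 and Btg1 at -1.45, both restrain division. So does Btg2, which was higher in Rhod-ko at 4.46, so the calls did not split by this role. Cdk4 differed by 1.63 but by only 0.22 with means, and it read 30752 in rd1 A8, the only rd1 cell over the floor. Retinal progenitor genes were called in 2 of 48 cases in Rhod-ko (4.17%, Etv5 and Smo) and 3 in rd1 (6.25%, Hey2, Lhx2 and Six3). These shares were near the 5.79% and 3.87% of all genes, so the list as a whole did not stand out. The count in Rhod-ko was 6 without rd1 B1 and 4 without Rhod-ko A2 or rd1 A5/A6. The count in rd1 was 7 without rd1 A1 and 5 without rd1 A5/A6. Smo was under 2-fold with a single fixed probe set, at 0.33, after quantile normalization, at 0.76, and with means, at 0.17. Hey2, a Notch effector, read 708, 4876, 3056, 3.4 and 8157 against 6109, 16105, 11324 and 12702. Lhx2, an eye field factor kept in MGCs, read 13512, 11772, 5454, 2094 and 2228 against 6306, 25176, 15843 and 15389, while Pax6 and Sox2 differed by 0.47 and -0.37.

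Phagocytosis and lysosome genes were called both ways. Higher in Rhod-ko were 7 of 40, among them the lysosomal cholesterol carrier Npc2, the cathepsins Ctsz, Ctsh and Ctsf, the proton pump genes Atp6ap2 and Atp6v1e1, and the engulfment receptor Megf10. The 3 higher in rd1 were the receptors Scarb1, Axl and Mertk. Npc2 read 11189, 616, 13647, 20994 and 13307 in Rhod-ko and 264, 30207, 1853 and 164 in rd1. Scarb1, the receptor for high-density lipoprotein, read 14619.8, 3072, 817, 365 and 4892 against 3273, 14609, 37664 and 19945. Axl and Mertk, receptor kinases for dying cells, were on in 1 of 5 Rhod-ko cells and 3 of 4 rd1 cells each, and no single Rhod-ko cell had both. Under 90th-percentile scaling the list held 5 and 10. When 1 cell was left out the count for rd1 was always higher, at 4 to 8, with 8 without rd1 A1, 6 without Rhod-ko A2 or A3 or rd1 A5/A6, and 5 without Rhod-ko A5 or rd1 B1 or A8. The count for Rhod-ko was 11 without Rhod-ko A5.

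Interferon and antigen presentation genes showed closely related members on opposite sides. Ifitm2 read 15659, 8.6, 14371, 5010.5 and 26.9 in Rhod-ko and 9.9, 50.2, 9982 and 34.5 in rd1, whereas Ifitm3 read 25537, 6, 13110.4, 77.9 and 4.5 against 7553, 12.6, 32380.1 and 52444. These membrane proteins restrict virus entry, and the genes are near-identical neighbors whose probes could share transcripts. Rhod-ko A1 and A3 were high and A2 and A5 low for both. B2m, the light chain of class I molecules, read 19832, 8359, 20559, 25396 and 14398 against 2412, 2411, 36472 and 12251. In all, 3 of 35 were higher in Rhod-ko (6 without Rhod-ko A2 or A3, 5 without rd1 A8) and 5 in rd1 (2 without Rhod-ko A1, rd1 A1 or rd1 B1, 3 without Rhod-ko A3, Rhod-ko A4 or rd1 A5/A6). Complement (0 and 1 of 15, the latter Clu) and chemokine genes (1 and 2 of 36) were mostly under the floor.

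Clock genes, which form a feedback loop of activators and repressors, were called both ways. Of 21 measured, 4 were higher in Rhod-ko, Ciart, Per2, Cry2 and Nr1d1, all repressors, and 2 in rd1, the activator Arntl and the repressor Cry1. Without Rhod-ko A4 the first count was 2, without rd1 A1 it was 7, and without rd1 A5/A6 the second was 1. Ciart read 5920.1, 6188, 19.5, 9846 and 10443 in Rhod-ko and 1682, 129, 109 and 3595 in rd1, and was on in only 1 of the 18 cells of the other groups. Per2 read 78.4, 3316, 7355, 4437 and 1109 against 586, 2757, 267 and 88.7, and Arntl read 208, 1990.3, 6988, 14.6 and 522 against 21.7, 8921, 12186 and 55.8. The cells of both models overlapped for each of these genes, and the labels give no time of day.

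Splicing and RNA-binding genes were called both ways, with 11 of 53 higher in Rhod-ko and 13 in rd1 (4 and 19 under 90th-percentile scaling). These were 20.8% and 24.5% of the list, beside 23.3% and 15.6% of all genes over the floor. Sf3b2, a component of the U2 particle, read 6475, 10627, 10518, 5607 and 10273 in Rhod-ko and 3748, 4152, 1353 and 2755 in rd1, and Tardbp, which encodes TDP-43, read 8063, 3489, 5849.7, 5797 and 3116 against 3102, 145, 2313 and 1442. Neither overlapped, though Tardbp only just. The difference of Tardbp, 1.67, was under 2-fold with a single fixed probe set, at 0.45, and that of Sf3b2, 1.68, under 90th-percentile scaling, at 0.52. Lsm4 was higher in rd1 at -3.15, despite rd1 B1 at 82.3. Matrix genes were called in 2 of 52 cases each way, or in 6 in rd1 without rd1 A1 or B1. Their share of 3.85% each way was no higher than the 5.79% and 3.87% of all genes. Col18a1, which encodes the source of endostatin, was on in all 5 Rhod-ko cells at 2142 to 8909.5 and in 0 of 4 rd1 cells, and Sparc was on in all 9 but 2.11-fold higher in rd1.

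**Figure D5:**
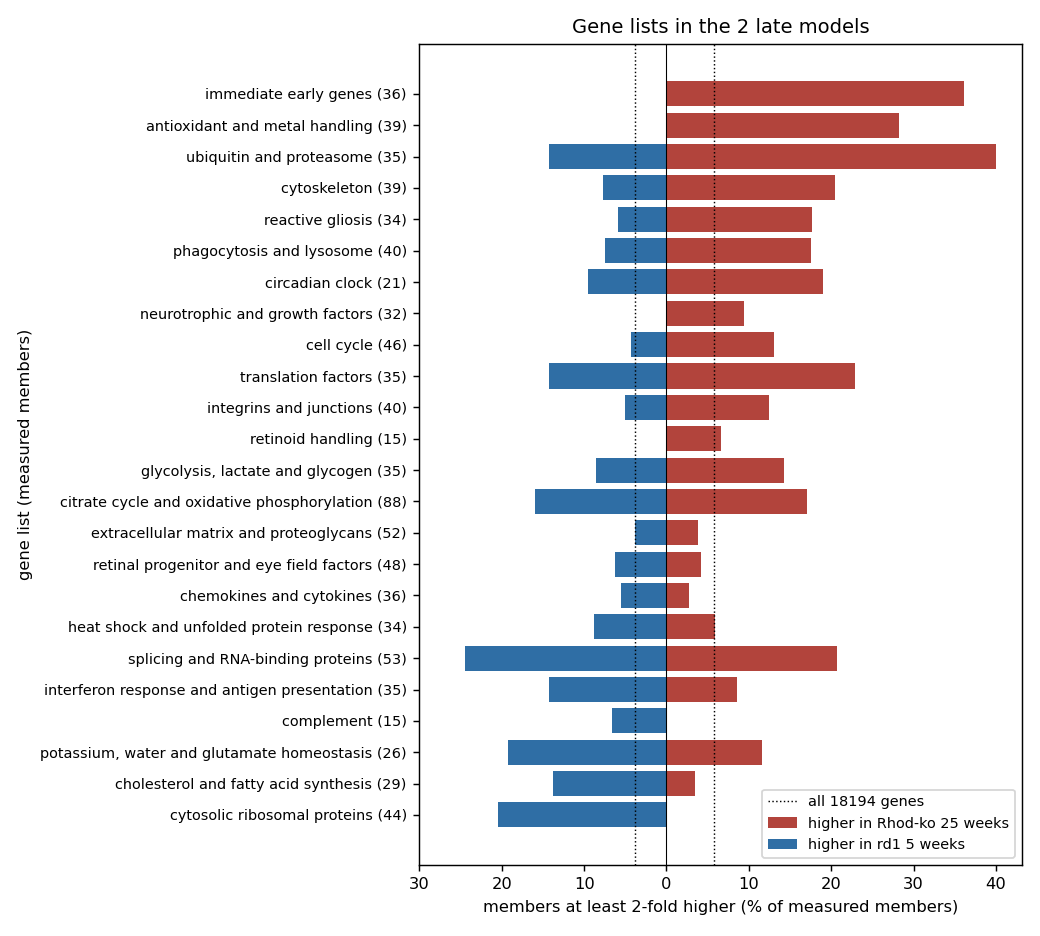
Bars give the percentage of measured members of each gene list that were at least 2-fold higher in Rhod-ko (right) or in rd1 (left), with the number measured in parentheses; dotted lines mark 5.79% and 3.87%, the shares over all 18194 genes. Immediate early and antioxidant genes have bars to the right only, cytosolic ribosomal proteins to the left only, and most other lists extend both ways.

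The other lists had few calls or calls both ways, and most of their counts changed by over 1.5 times when 1 cell was left out. Cytoskeleton genes were called in 8 and 3 of 39 cases, translation factors in 8 and 5 of 35, integrins and junctions in 5 and 2 of 40, neurotrophic and growth factors in 3 and 0 of 32, heat shock genes in 2 and 3 of 34, lipid synthesis genes in 1 and 4 of 29, and retinoid genes in 1 and 0 of 15. Without rd1 A5/A6, 6 cytoskeleton genes and 1 lipid synthesis gene were higher in rd1, and without rd1 B1 7 lipid synthesis genes were. Without rd1 A8, 4 translation factors and 3 integrin and junction genes were higher in Rhod-ko. Without rd1 A1, 5 and 6 heat shock genes were called. Only 24.8% of all genes had a median over the floor in either model, against 35 of 35 for the proteasome list and 81 of 88 for the mitochondrial list, so such lists also stand beside the 23.3% and 15.6% called among genes over the floor. Of neuronal markers, the cone genes Pde6h and Gnb3 were higher in rd1, at -2.81 and -1.65, and the bipolar genes Pcp2 and Prkca, the ganglion cell genes Sncg and Gap43 and the rod gene Rom1 were higher in Rhod-ko, beside Gng13 in rd1. Pde6h read 6856, 7136, 316 and 24398 in rd1 and 2705 in Rhod-ko A2, with the other Rhod-ko cells under 1000. No amacrine, horizontal, microglial, vascular or pigment epithelium marker was called.

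Some genes spread widely within a model. The widest in each, among genes with a median over 2000, were Aldh1a1 and Mt2. Aldh1a1, which makes retinoic acid, ran from 5.5 to 29117 among the Rhod-ko cells and from 848 to 93290.1 among the rd1 cells, so that the medians, 1.82-fold apart, describe neither group well. Mt2 read 45051, 14176, 28615, 2802 and 178 in Rhod-ko and 12097, 14252, 28065 and 44949 in rd1. Of all 18194 genes, 36.2% were on in at least 1 Rhod-ko cell and 3.70% in all 5, and 29.8% were on in at least 1 rd1 cell and 2.76% in all 4.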

How the data were processed

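RNA of single retinal cells was reverse transcribed with an oligo(dT) primer, tailed, amplified by PCR and hybridized to Affymetrix Mouse 430 2.0 arrays. The deposited intensity values are linear MAS5.0 signals from the authors, whose trimmed mean was set to 500 on each array, over 45101 probe sets. The sources used here give no version of MAS5.0. Deep amplification from 1 cell can lose transcripts at random, so a low signal in 1 cell is weak evidence of absence.

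Groups came from the labels. Probe sets were named from GEO's platform annotation with symbols updated through RefSeq. Of 45101 probe sets, 34958 had 1 symbol, 932 several and 9211 none, and the 34958 gave 18194 genes. Only those with 1 symbol were used, and a gene took its brightest one in each cell. The near-identical rd1 arrays A5 and A6 were averaged. Signals were floored at 1000 before log2 medians were taken, and genes over 2000 were on and genes under 1000 off. Pearson r between cells used log2 signals floored at 100. With no animal named, no test was run. Exact (Clopper-Pearson) 95% intervals of shares of cells cover counting error only. The number of arrays limits the precision, and the files give no depth.

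Genes were named by rule, being those specific to a model (up to 12 each), of the other genes the 8 widest differences without overlap in each direction, the 10 shared genes with the highest lower median, the 2 largest differences in each direction of each list, genes the study centers on, and the widest spread within a model. Other called members of a list are named as such, and further genes were chosen after their values were seen. The members and all 36 lists were chosen with earlier results of these data known. Promoter windows came from RefSeq (GRCm38.p6). Scripts were tested on simulated data and used SciPy 1.17.1, NumPy 2.4.6, pandas 2.3.3 and matplotlib 3.10.9 under Python 3.11.15. Alternatives were quantile normalization, 90th-percentile scaling, a single fixed probe set for each gene, other floors and thresholds, means in place of medians, A5 and A6 as separate cells, and leaving out each cell. Leaving out the 5 vascular-rich P13 cells was chosen after seeing the data.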

Additional observations from a re-analysis of the deposited data

Results flagged for a closer look

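Each gene named above or by the stated rule and followed through the alternatives was checked in each model for a single cell far from the rest, by the gap between the extreme cell and its nearest neighbor as a fraction of the group's range of log2 signals floored at 1000. A gap of 1 means that all other cells of that model were at the floor. Of 233 sets of values checked, 43 stood out, 24 of them with a gap of 1. Without a floor about 1 in 20 would stand out by chance, but the floor gives a gap of 1 whenever a single cell passes it, even by little (Psma3 read 1066 and Nin 1084.5 in rd1 A1), so the number of sets is not read against chance. The sets also share cells.

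Among the Rhod-ko cells A3 stood out most often, in 9 sets. It was the highest cell for Prodh (1), Cnot2 (1), Mertk (1), Cry1 (1), Six3 (0.934), Lsm4 (0.926) and Gfap (0.827), and the lowest for Rbm39 (0.846) and Ciart (0.758). Rhod-ko A1 was highest for 1500011B03Rik (0.82) and Sod1 (0.722). Rhod-ko A2 was highest for the cone gene Pde6h (1) and lowest for Fos (0.793) and Npc2 (0.793). Rhod-ko A5 was highest for Nnt (0.769) and lowest for Psmb2 (0.844), and A4 was highest for Psmd14 (0.737).

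Among the rd1 cells A1 stood out in 13 sets. It was the only cell over the floor for Sdc4, Nin, Dusp1, Lgals3, Psma2, Psmb2, Psma3, Psmd8, Ccnd1 and Col18a1 (1 each), all of which were higher in Rhod-ko by their medians, and it was the lowest for Car2 (0.956), Rps27l (0.895) and Sparc (0.842). The A5/A6 cell was highest for Jun, Nnt and Per2 (1 each), Ctsz (0.936) and Gstm5 (0.838). B1 was highest for Wsb1, Junb, Lgals1 and Ifitm2 (1 each) and Prdx4 (0.995). A8 was highest for Pcna and Cdk4 (1 each) and Prpf19 (0.851). The causes were not tested.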

How the results depend on the processing

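With the values used above, 1053 genes were higher in Rhod-ko, 705 in rd1, 318 on in all cells, and 4 and 2 specific to Rhod-ko and rd1. Scaling to the same 90th percentile gave 633 and 1208 genes and 1 specific to Rhod-ko, and moved the median difference of genes not at the floor in both models from 0.02 to -0.23. Quantile normalization gave 2 genes specific to Rhod-ko, of which 1 was among the original 4. A floor of 500 gave 1647 and 1092 genes, with 2 and 0 specific, and a floor of 2000 gave 492 and 400 genes, with 13 specific to Rhod-ko. With genes on at 1000, 11 and 4 were specific, and with genes on at 5000, 168 were shared and 1 and 1 specific. The counts follow from the construction of these thresholds, and the cause of the shift under scaling was not tested. Leaving out 1 cell gave 1056 to 1238 genes higher in Rhod-ko, 630 to 944 in rd1, 327 to 396 shared, 6 (without rd1 A8) to 21 (without rd1 A1) specific to Rhod-ko and 2 to 10 (without rd1 B1) specific to rd1; without rd1 A5/A6 these were 8 and 7. Counts without overlap rose from 56 to 89 to 131 and from 31 to 42 to 128, both highest without rd1 A1, since fewer cells overlap less.

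Among 103 called genes that were followed through the alternatives, 84 to 103 stayed at least 2-fold under each alternative. Clu and Dbi reversed after quantile normalization, to 0.17 and 0.11, and Fos after 90th-percentile scaling, to -0.20. In an alternative chosen after seeing the data, Gfap differed by -1.05 and -2.77 in its 2 brighter probe sets taken singly. No paired analysis was possible because array labels do not pair cells of different mice. Signals near the floor limit what can be said of low genes.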
